A study of Homo sapiens with 48 samples.

Results

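The data are the knockout values of 6 transcription factor genes, FOS, FOSL1, JUN, JUNB, ATF3 and MYC, out of the 327 genes measured in a pooled CRISPR screen of human squamous carcinoma cells. They were taken by name from the 5 gene tables of the screen, as the AP-1 genes of the FOS and JUN families with ATF3 and MYC, and all 6 were found in every table. In such a screen each cell carries 1 guide RNA that directs the Cas9 nuclease to 1 gene, and the change in abundance of a gene's guides shows how well cells without that gene kept up with the others.

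The study used 3 lines that stably carried pLEX_Cas9: SCC-13 (SCC13 here) from skin, CAL27 from the tongue and A-431 (A431), an epidermoid carcinoma line. All groups, the initial cells included, carried Cas9 and the guide library and had been selected with blasticidin and puromycin. The later groups were 16 SCC13 tumors grown in the flanks of NOD.Cg-Prkdcscid Il2rgtm1Wjl/SzJ mice, 10 CAL27 tumors and 2 CAL27 cultures, and 8 A431 tumors and 2 A431 cultures, with tumors of CAL27 and A431 grown in SHO mice. Tumors were taken at about 2 months and cultures at 3 weeks, and each table was set against 2 initial samples. Both mouse strains are immunodeficient, so the tumors grew without a full immune system. SCC13 and the other lines differed in mouse strain, which cannot be told apart from the line. The labels do not say whether a Cas9 line was 1 clone or how many mice carried the tumors, so p-values cover the spread between these samples, which may be partly technical. Each table had its own initial samples, and the error of those is in no test.

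AP-1 is a family of paired proteins that bind DNA through a basic leucine zipper. Jun proteins can pair with each other or with a Fos protein, whereas Fos proteins need a Jun partner. FOS, JUN, JUNB and ATF3 are immediate early genes, switched on within minutes by growth factors or stress, and FOSL1 (the FRA-1 protein) follows with sustained signalling through the EGF receptor and the MAP kinases. In keratinocytes AP-1 takes part in both proliferation and differentiation, and which subunits are present matters for the outcome. MYC binds DNA as a dimer with MAX through a different fold, a basic helix-loop-helix zipper, and drives genes of growth, ribosome production and DNA replication.

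Values are the authors' log fold changes per gene against the initial cells, in log units whose base no source states. Each value column, which stands for 1 tumor or 1 culture, had the median of its 327 genes subtracted, so a value below 0 means that the knockout lost ground to the median gene. The column medians before centring, relative to the non-targeting guides, lay between -2.67 and 0.53 in SCC13 tumors, -1.50 and -0.56 in CAL27 tumors, -0.49 and -0.47 in CAL27 culture, -0.55 and -0.07 in A431 tumors, and -0.37 and -0.36 in A431 culture. SCC13 tumor column 3 was the 1 column with a median above 0. The SD over genes of a column was 1.89 to 2.87 in SCC13 tumors, 1.09 to 2.23 in CAL27 tumors, 0.57 to 0.59 in CAL27 culture, 0.42 to 1.34 in A431 tumors and 0.50 to 0.51 in A431 culture. The tables hold no counts, so depth is unknown. In SCC13 tumors many genes stood at a floor, recognised where at least 4 genes differed by exactly the same amount between a pair of tumors, as genes with no reads left would. It took in 8 to 145 genes per SCC13 tumor (median 92.5), up to 16 per CAL27 tumor, 6 in CAL27 culture and none in A431. A value at the floor was read as a bound on the loss. The floor was inferred from the scores and may take in genes with some reads left.

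**Figure D1:**
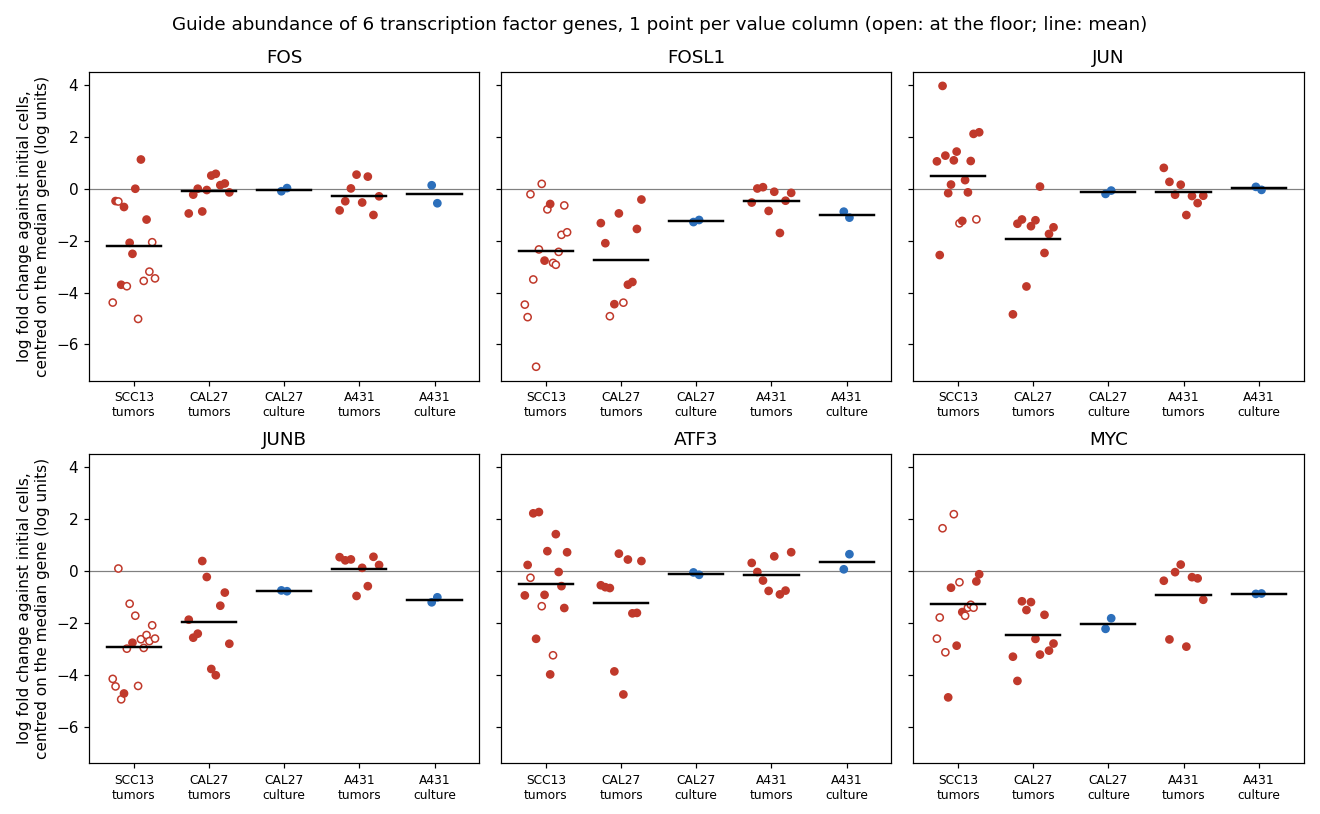
Log fold change of the guides of each gene against the initial cells (vertical axis, log units, centred on the median gene of each column), 1 point per value column in SCC13 tumors, CAL27 tumors, CAL27 culture, A431 tumors and A431 culture, with a line at the mean and open points for values at the floor. JUNB lies below 0 in 15 of 16 SCC13 tumors and MYC in all 10 CAL27 tumors, and JUN scatters around 0 in SCC13 tumors.

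In SCC13 tumors 4 of the 6 knockouts fell (FOS, FOSL1, JUNB and MYC), where 23.9% of all genes tested fell. CAL27 tumors showed a loss of 5 of the 6, all but FOS, against 22% of all genes. FOSL1, JUNB and MYC fell in both cultures, 3 of 6 in each, where 18.7% of all genes fell in CAL27 culture and 11.3% in A431 culture. In A431 tumors 0 of 6 passed the limma test, against 11.9% of all genes that fell, and 1 of the 6 (MYC) had an unadjusted p under 0.05, as 17.7% of all genes had on the lower side. No knockout of the 6 rose in any table, where 23.5% of all genes rose in SCC13 tumors, 18.7% in CAL27 tumors, 4.89% in CAL27 culture, 7.95% in A431 tumors and 2.14% in A431 culture. With the non-targeting guides as 0 the calls over all genes divided differently, with 220 genes lower and 13 higher in SCC13 tumors in place of 78 and 77, and 164 lower and 18 higher in CAL27 tumors in place of 72 and 61. An exact sign-flip permutation test per gene called 4 of the 6 lower in SCC13 tumors, where it called 23.2% of all genes lower, 4 in CAL27 tumors against 18.3%, and 0 in A431 tumors against 0%. With 8 A431 tumors the smallest p of that permutation test is 0.0078, which leaves little room to pass after adjustment over 327 genes. Its 0 calls there therefore say little about loss. Adjusted p-values below are those of limma unless another test is named, by Benjamini-Hochberg over all 327 genes.

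JUNB encodes a Jun protein known both for restraining JUN and for acting as an AP-1 subunit in its own right. Its knockout was lost in SCC13 tumors, with a lowest value of -4.94, a median of -2.73 and a highest of 0.10. The mean was -2.92 ± 1.36 (SD, n = 16), below 0 in 15 of 16 tumors (adjusted p = 5.2e-08). JUNB stood at the floor in 14 of the 16, the 1 tumor above 0 among them, and the mean of the remaining 2 was -3.74. Leaving out values at the floor picks tumors partly by the loss itself and partly by where their floor lay. The mean can move either way, and for JUNB it became lower. Such means are given as alternatives and not as support for a call.

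CAL27 tumors had JUNB values between -4.01 and 0.39 with a median of -2.14, and 9 of 10 lay below 0 (mean -1.94 ± 1.45, adjusted p = 0.00055). The CAL27 cultures stood at -0.74 and -0.78 (adjusted p = 0.00995), inside the range of the tumors. In A431 the picture was another one: tumors ranged from -0.96 through a median of 0.33 to 0.55, with 6 of 8 above 0 and a mean of 0.10 ± 0.56 (adjusted p = 0.786), and the cultures stood at -1.20 and -1.01 (mean -1.11 ± 0.14, adjusted p = 0.0129). All 8 A431 tumors lay above both cultures, as was so for 6.73% of all genes.

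JUN is the first Jun protein described and a strong activator within AP-1 dimers. CAL27 tumors were the 1 table in which its knockout fell, with values from -4.84 through a median of -1.46 to 0.09 and 9 of 10 tumors below 0 (mean -1.94 ± 1.42, adjusted p = 0.00052). The CAL27 cultures stood at -0.20 and -0.07 (adjusted p = 0.277), inside the range of the tumors and above their median.

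SCC13 tumors had JUN values on both sides of 0, 10 above and 6 below, with a lowest value of -2.55, a median of 0.70 and a highest of 3.97 (mean 0.51 ± 1.62, adjusted p = 0.385). On the deposited scale, relative to the non-targeting guides, the same mean was -1.11 and counted as a loss (adjusted p = 0.0416), so the sign of JUN in SCC13 depends on whether the median gene or the non-targeting guides are taken as 0. JUN was at the floor in 2 SCC13 tumors, far fewer than JUNB. In A431 the JUN values were small: -1.01 to 0.81 in tumors (median -0.25, mean -0.14 ± 0.55, adjusted p = 0.686), and 0.08 and -0.04 in the cultures.

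FOSL1 was lost in 4 of the 5 tables. In SCC13 tumors it ranged from -6.86 through a median of -2.38 to 0.19, with 15 of 16 below 0 (mean -2.41 ± 1.90, adjusted p = 8.59e-06). It was at the floor in 14 of these 16 tumors, and the mean of the remaining 2 was -1.67 (adjusted p = 0.295), so the call rests on values that are bounds. The 1 FOSL1 value above 0 was among those 14. JUNB and FOSL1 were among the genes most often at the floor, since 4.28% of all genes stood there in at least as many SCC13 tumors.

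All 10 CAL27 tumors had FOSL1 below 0, from -4.91 through a median of -2.84 to -0.41 (mean -2.74 ± 1.65, adjusted p = 4.48e-05). The CAL27 cultures stood at -1.28 and -1.20 (mean -1.24 ± 0.06, adjusted p = 0.00733), within the range of the tumors. A431 tumors ranged from -1.70 to 0.06 with a median of -0.31, and the mean of -0.47 ± 0.59 did not pass (adjusted p = 0.151). Relative to the non-targeting guides that mean was -0.74 and passed (adjusted p = 0.0273). The A431 cultures stood at -0.88 and -1.11 (mean -0.99 ± 0.16, adjusted p = 0.0139), within the range of the A431 tumors and below their median.

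FOS, the Fos protein whose induction by serum is the textbook immediate early response, gave a different pattern from FOSL1. Its knockout fell in SCC13 tumors, from -5.02 through a median of -2.29 to 1.13, with 14 of 16 below 0 (mean -2.21 ± 1.77, adjusted p = 3.46e-05). The values of FOS were at the floor in 8 SCC13 tumors, and without those the mean was -1.19 (adjusted p = 0.123).

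In the other tables FOS stayed close to the median gene. CAL27 tumors ranged from -0.95 to 0.58 around a median of -0.02 (mean -0.08 ± 0.51, adjusted p = 0.862), with cultures at -0.09 and 0.03. On the deposited scale the CAL27 tumor mean was -0.89 and passed (adjusted p = 0.0118). A431 tumors ranged from -1.01 through -0.38 to 0.55 (mean -0.26 ± 0.57, adjusted p = 0.432), and the A431 cultures, at 0.14 and -0.56, lay inside that range.

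ATF3 encodes a stress-induced zipper protein that can pair with Jun proteins and can repress transcription. Its values spread widely in tumors. In SCC13 tumors they ran from -3.98 through a median of -0.42 to 2.28 (mean -0.48 ± 1.80, adjusted p = 0.416), with 10 of 16 below 0, although the mean relative to the non-targeting guides was -2.10 (adjusted p = 0.000195). In CAL27 tumors they ran from -4.76 through -0.64 to 0.67, with 7 of 10 below 0 (mean -1.22 ± 1.82, adjusted p = 0.0409). That call was the least firm of those made in CAL27: it was lost without tumor column 2, 4, 6, 8 or 9 in turn (adjusted p = 0.0515, 0.125, 0.118, 0.0705 and 0.0726) and in the exact sign-flip permutation test (adjusted p = 0.109). Without column 6, the lowest, the mean was -0.82. ATF3 stood at -0.05 and -0.14 in CAL27 culture, at -0.90 to 0.73 in A431 tumors (median -0.20, adjusted p = 0.679), and at 0.07 and 0.65 in A431 culture, and none of these passed.

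MYC was lost most evenly in CAL27. Its knockout lay below 0 in all 10 CAL27 tumors, from -4.23 through a median of -2.70 to -1.16 (mean -2.48 ± 1.04, adjusted p = 7.8e-06). The CAL27 cultures stood at -2.23 and -1.82 (mean -2.02 ± 0.29, adjusted p = 0.00733), in the middle of the tumor values, and MYC was at the 5th and 10th lowest of the 327 genes there.

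SCC13 tumors had MYC from -4.87 through a median of -1.41 to 2.19, with 14 of 16 below 0 (mean -1.28 ± 1.73, adjusted p = 0.0152). That call was lost without tumor column 5, the lowest (mean -1.04, adjusted p = 0.0567), and without the 10 values at the floor (mean -1.75, adjusted p = 0.0613). The 2 highest MYC values were themselves among those 10, in tumors where its floor value lay above the median gene.

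A431 tumors were uneven for MYC. The 8 values were -2.91, -2.63, -1.10, -0.37, -0.28, -0.23, -0.04 and 0.25, so 3 tumors stood well below the other 5 (mean -0.92 ± 1.21, adjusted p = 0.0687). Relative to the non-targeting guides the mean was -1.19 and passed (adjusted p = 0.0144). The A431 cultures stood close together at -0.88 and -0.86 (adjusted p = 0.0139), lower than 5 of the 8 tumors and higher than 3.

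**Figure D2:**
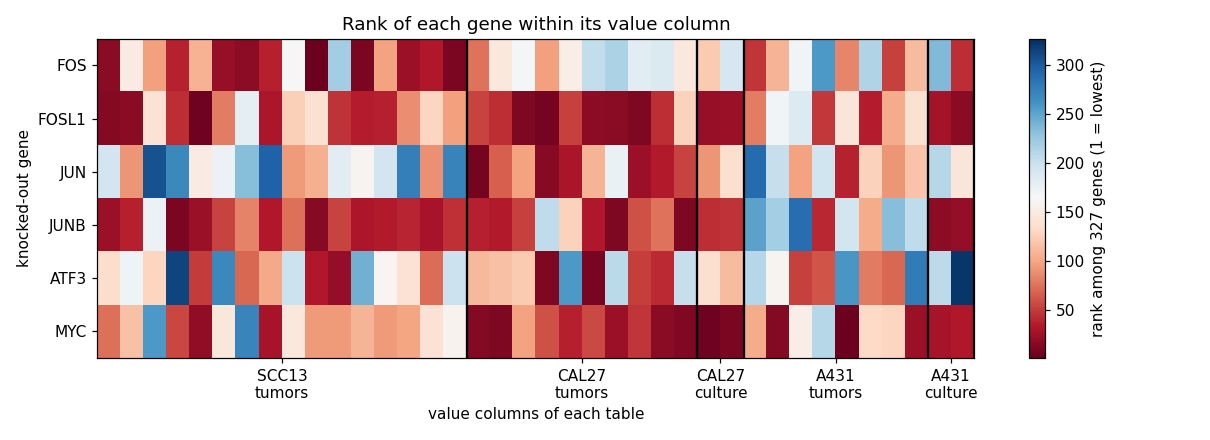
Rank of each gene among the 327 genes of a value column (colour, 1 is the lowest and darkest red), with genes down the page and the columns of SCC13 tumors, CAL27 tumors, CAL27 culture, A431 tumors and A431 culture from left to right. JUNB ranks 18 and 21 in A431 culture and between 41 and 288 in A431 tumors, and MYC ranks 5 and 10 in CAL27 culture.

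Ranks within a column do not depend on centring or on the spread of the column, but they do depend on the floor. In SCC13 tumors 14 of 16 values of JUNB, 14 of FOSL1 and 10 of MYC stood there. The order of genes at the floor does not measure loss, and a MYC value at the floor had rank 272. JUNB had a median rank of 36 in SCC13 tumors (10 to 173), 45 in CAL27 tumors (12 to 205) against 44 and 46 in CAL27 culture, and 213 in A431 tumors (41 to 288) against 18 and 21 in A431 culture. FOSL1 had a median rank of 63.5 in SCC13 tumors, 31 in CAL27 tumors against 22 and 23 in culture, and 121.5 in A431 tumors (36 to 186) against 29 and 17 in culture. JUN had a median rank of 188 in SCC13 tumors, 44.5 in CAL27 tumors against 92 and 138 in culture, and 122.5 in A431 tumors against 210 and 144 in culture. By median rank JUN stood lower in CAL27 tumors than in CAL27 culture, whereas JUNB and FOSL1 held a similar place in CAL27 and stood higher in A431 tumors than in A431 culture. MYC ranked at a median of 104 in SCC13 tumors, 31 in CAL27 tumors (12 to 99) against 5 and 10 in culture, and 116 in A431 tumors (4 to 210) against 30 and 34 in culture.

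The JUN and FOS families were each compared as a pair of paralogs within the same tumor, so that a tumor's own spread enters both genes. Exact two-sided sign-flip permutation tests were run on the 3 tumor tables for each pair, with p-values adjusted over these 6 tests. In SCC13 tumors JUN minus JUNB had a median of 3.37 and a mean of 3.43 ± 1.56 over all 16 tumors (adjusted p = 0.00018 from the smallest p the permutations can give, 3.1e-05). In 2 of them both genes were counted as at the floor, with differences of 0.39 and 0.91. Genes with no reads left would have the same difference in both tumors, so the floor rule may have taken in a gene with reads left. No direction is read from these 2 tumors. In the other 14 tumors JUN stood above JUNB every time, by 1.89 to 6.23 log units (mean 3.83 ± 1.20, adjusted p = 0.00073, again from the smallest p possible in the exact permutation test). JUNB was at the floor in all but 2 of these 14, so most of the differences are lower bounds. In the 2 tumors with neither gene there JUN stood 4.55 and 4.20 above JUNB.

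In CAL27 tumors the paralogs JUN and JUNB fell to the same mean, and the size of the loss in a tumor differed between them. JUN minus JUNB ran from -4.15 to 4.10, above 0 in 5 tumors and below 0 in 5 (mean 0.01 ± 2.53, adjusted p = 0.984). A431 tumors had differences from -1.14 to 1.12 (mean -0.23 ± 0.78, adjusted p = 0.828). In culture JUN was above JUNB in every column, by 0.55 and 0.71 in CAL27 and by 1.28 and 0.97 in A431; 2 cultures allow no such test.

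**Figure D3:**
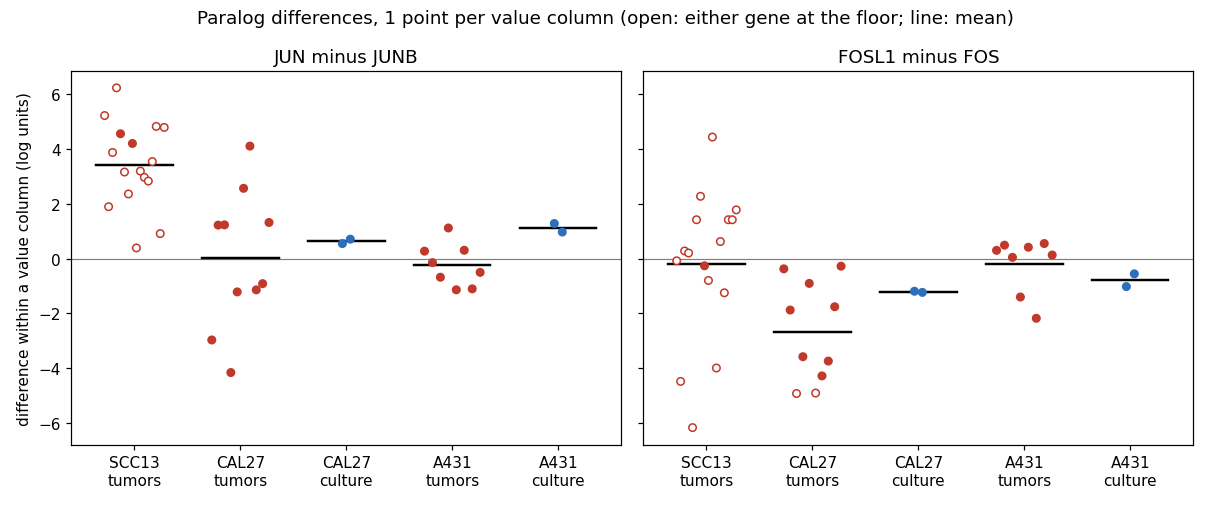
Difference between paralogs within a value column (vertical axis, log units), JUN minus JUNB on the left and FOSL1 minus FOS on the right, 1 point per column with a line at the mean and open points where either gene is at the floor. JUN minus JUNB is above 0 in the 14 SCC13 tumors in which the genes are not both at the floor, and FOSL1 minus FOS is below 0 in all 10 CAL27 tumors.

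FOSL1 minus FOS was below 0 in 10 of 10 CAL27 tumors, from -4.92 to -0.27 (median -2.72, mean -2.66 ± 1.83, adjusted p = 0.00586 from the smallest p possible, 0.00195). Without the 2 tumors in which FOSL1 was at the floor the mean was -2.10 (adjusted p = 0.0234, exact permutation test). Over all 16 SCC13 tumors the median was 0.24 and the mean -0.20 ± 2.71 (adjusted p = 0.928, exact permutation test). Both genes were counted as at the floor in 7 of them, and no direction is read from those. The differences in these 7 ran from -0.08 to 1.78, whereas genes with no reads left would keep 1 difference. The other 9 ran from -6.16 to 4.43, with 3 above and 6 below 0 (mean -1.11 ± 3.35, adjusted p = 0.621, exact permutation test), and 1 tumor had neither gene at the floor. A431 tumors ran from -2.17 to 0.55 with 6 of 8 above 0 (median 0.22, mean -0.20 ± 1.01, adjusted p = 0.891), the median and the mean differing in sign. The cultures gave -1.19 and -1.23 in CAL27 and -1.02 and -0.55 in A431, all below 0. The difference between lines was not tested for either pair.

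Across the tumors of the 3 lines a moderated F test passed for 4 of the 6 genes, JUNB (adjusted p = 0.00041), FOS (0.00247), JUN (0.00261) and FOSL1 (0.0249), where 26.6% of all genes passed. MYC (0.138) and ATF3 (0.455) did not. The lines differed in mouse strain, in the floor and in the spread of their columns, and the part of these in the differences was not tested beyond the alternatives given.

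JUNB, FOS and FOSL1 were lower in SCC13 tumors than in A431 tumors, 3 of 6 against 10.7% of all genes. The difference for JUNB was -3.02 (SE 0.59, adjusted p = 0.00024), and it passed under all 29 alternatives. For FOS it was -1.95 (SE 0.60, adjusted p = 0.0146) and for FOSL1 -1.94 (SE 0.66, adjusted p = 0.0272). Both of these were lost when each column was divided by its SD over genes (adjusted p = 0.114 for FOS and 0.22 for FOSL1) and when floor values were left out (0.29 and 0.437). MYC, at -0.36 on the centred scale, was -1.71 relative to the non-targeting guides and passed there (adjusted p = 0.041). That made 4 of 6 lower on that scale, beside 121 of all genes in place of 35. The FOSL1 difference was also lost without SCC13 tumor column 5 (adjusted p = 0.0508) or A431 tumor column 2, 3 or 5 (0.0502, 0.0557 and 0.052).

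SCC13 tumors differed from CAL27 tumors in FOS, which was lower (difference -2.13, SE 0.56, adjusted p = 0.00396) where 7.95% of all genes were lower, and in JUN, which was higher (difference 2.45, SE 0.57, adjusted p = 0.00135) where 9.79% were higher. JUN was the 1 member whose loss stood in CAL27 tumors and not in SCC13 tumors with a difference that passed, though relative to the non-targeting guides the difference was 1.64 and just missed (adjusted p = 0.051). The FOS difference was -1.11 without floor values (adjusted p = 0.153). The FOSL1 difference was 0.33 with a 95% interval from -0.90 to 1.55, and that of JUNB -0.98 with an interval from -2.08 to 0.12. Relative to the non-targeting guides the JUNB difference was -1.78 and passed (adjusted p = 0.0312), and with columns divided by their SD that of MYC was 0.95 and passed (adjusted p = 0.0347).

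CAL27 tumors against A431 tumors gave 0 of 6 calls with limma, where 3.06% of all genes were lower, and 4 of the 6 were lower at an unadjusted p under 0.05, as 11.9% of all genes were. The differences were -2.27 for FOSL1 and -2.04 for JUNB (adjusted p = 0.0584 for both), -1.80 for JUN (0.124) and -1.56 for MYC (0.2). This comparison turned on how the spread was estimated and on the scale and floor values used. With an own spread for each line, in place of 1 spread that includes the wider SCC13 tumors, those 4 genes passed (adjusted p = 0.00126 for FOSL1, 0.00183 for JUNB, 0.00425 for JUN and 0.0165 for MYC), where 13.5% of all genes were lower. FOSL1 also passed without CAL27 tumor column 1, 5, 9 or 10 or A431 tumor column 6, and JUNB without CAL27 tumor column 4, 5 or 9 (adjusted p = 0.0241 to 0.0468).

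Between the cultures MYC was the 1 member that passed, lower in CAL27 than in A431 culture (difference -1.15, SE 0.17, adjusted p = 0.0326), where 2.75% of all genes were lower. It was lost without any 1 of the 4 cultures (adjusted p = 0.153 to 0.249). JUNB was 0.35 higher in CAL27 culture (95% interval 0.02 to 0.68, adjusted p = 0.211), and FOSL1 differed by -0.25 (-0.59 to 0.10).

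Tumors were set against the culture of the same line, which asks whether a knockout fared differently in the animal. With 1 spread for tumors and cultures, 0 of 6 passed in CAL27 and 0 of 6 in A431 by limma, and 0% of all 327 genes passed in either line. At an unadjusted p under 0.05 there were 0 of 6 members in CAL27, where 3.06% of all genes were lower, and 1 of 6, JUNB, in A431, where 3.98% of all genes were higher. The tumors ran for about 2 months and the cultures for 3 weeks, so setting and time cannot be told apart.

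In A431 the JUNB knockout was 1.20 log units higher in tumors than in culture (SE 0.44, p = 0.0161, adjusted p = 0.404, limma), and all 8 tumors lay above both cultures, as 6.73% of all genes did. With an own spread per table it passed (adjusted p = 0.00227), as did 6.73% of all genes, and likewise with columns divided by their SD over genes (difference 2.39, adjusted p = 0.0132), as did 3.36% of all genes. FOSL1 was 0.53 higher (SE 0.45, adjusted p = 0.912, limma). The remaining differences were -0.05 for FOS, -0.15 for JUN, -0.51 for ATF3 and -0.04 for MYC, each with a 95% interval that reached at least 0.51 on both sides of 0.

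In CAL27 every member was lower in tumors than in culture by its mean. The largest difference was that of JUN, -1.81 (SE 0.93, adjusted p = 0.6, limma). With an own spread per table JUN (adjusted p = 0.00197), FOSL1 (difference -1.49, 0.0135) and JUNB (-1.18, 0.031) passed, where 15% of all genes were lower. MYC differed by -0.45 (SE 0.78, adjusted p = 0.935). Dividing each column by its SD turned MYC round, to 2.00 higher in tumors (adjusted p = 0.0199), where 2.45% of all genes were higher, and the SD over genes of the culture columns was 0.57 and 0.59. FOSL1 and JUNB changed sign as well on that scale, to 0.61 and 0.21, and JUN stayed lower at -0.96.

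**Figure D4:**
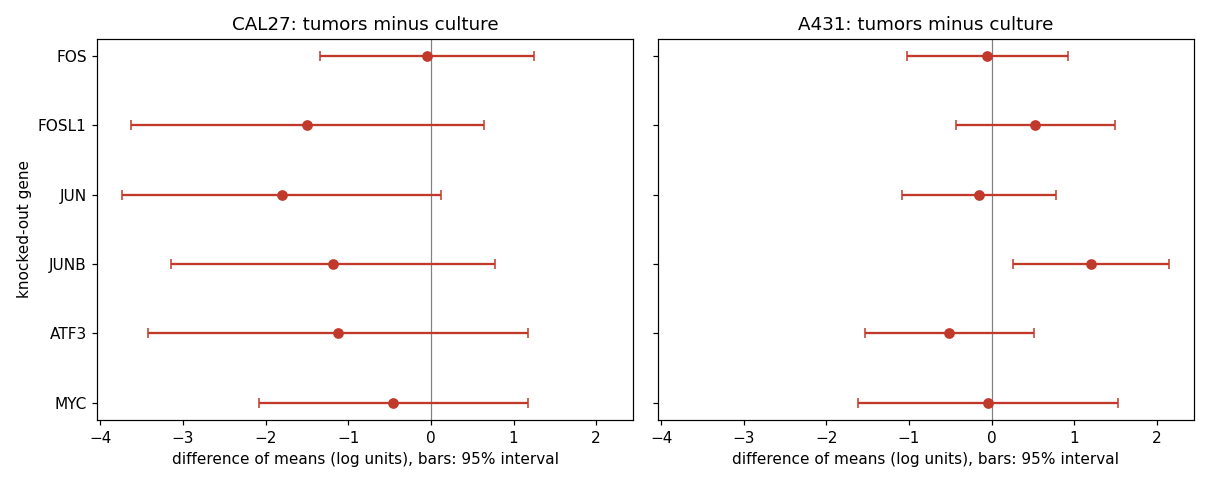
Difference of tumors minus culture for each gene (horizontal axis, log units, with 95% intervals from the limma fit), CAL27 on the left and A431 on the right. JUNB in A431, at 1.20, is the 1 interval that lies wholly on one side of 0, and no difference passed after adjustment over all genes.

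The library genes with the most similar pattern were found as the smallest root mean square difference over the 5 table means, each scaled by the SD over genes of its table. For FOSL1 these were YBX1, an RNA- and DNA-binding protein (0.28), and MCM7, a subunit of the replicative helicase (0.30). YBX1 averaged -3.07 in SCC13 tumors, -2.98 in CAL27 tumors against -1.14 in culture, and -0.40 in A431 tumors against -0.82 in culture. For MYC they were GINS2, a replication fork component (0.55), and MCM3, another helicase subunit (0.73), but with the means unscaled they were UBE2S and HSP90B1, and neither GINS2 nor MCM3 was among the 5 nearest. For JUNB they were SLC2A1, the glucose transporter GLUT1 (0.48), and TUBA1C, an alpha-tubulin (0.49). SLC2A1 averaged -2.48 in SCC13 tumors, -2.30 in CAL27 tumors against -1.22 in culture, and 0.36 in A431 tumors against -1.31 in culture. It had, like JUNB, a mean above 0 in A431 tumors and below -1 in A431 culture.

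FOS was nearest to GPNMB, a membrane glycoprotein (0.27), and RCOR1, a corepressor subunit (0.30), and GPNMB averaged -1.88 in SCC13 tumors and between -0.38 and -0.0046 in the other tables. JUN was nearest to MT1X, a metallothionein (0.41), and KRT14, a basal keratin (0.43). The knockout of KRT14 averaged 0.03 in SCC13 tumors, -1.60 in CAL27 tumors against -0.60 in culture, and 0.05 in A431 tumors against 0.03 in culture. ATF3 was nearest to E2F2, a cell cycle transcription factor (0.30), and HOMER3, a scaffold protein (0.34), but with the means unscaled to ASPM and MT1X, with neither of the first pair among the 5 nearest. With unscaled means GPNMB stayed nearest to FOS and SLC2A1 to JUNB, and MCM7 and KRT14 came first for FOSL1 and JUN. No member was the nearest or second nearest gene of another on either scale.

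Of 21 listed partners that can form dimers with AP-1 proteins, 2 were in the library, JUND and CEBPD. JUND, the Jun protein that is usually present in resting cells, rose in SCC13 tumors (1.57, SE 0.48, adjusted p = 0.00464) and averaged -0.01 in CAL27 tumors and 0.27 in A431 tumors. Its SCC13 mean was -0.05 relative to the non-targeting guides. JUND was at the floor in 0 of 16 SCC13 tumors, against 14 for JUNB and 2 for JUN. CEBPD, a zipper protein of the C/EBP family, rose in SCC13 tumors (2.86, adjusted p = 9.07e-07) and CAL27 tumors (1.03, adjusted p = 0.0169).

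Among 4 measured other immediate early genes 2 rose in SCC13 tumors and the same 2 in CAL27 tumors, CYR61, a matricellular protein (1.72 and 1.08), and BHLHE40, a transcriptional repressor (1.28 and 1.30), and none fell, where 23.5% of all genes rose in SCC13 tumors and 18.7% in CAL27 tumors. On the deposited scale the SCC13 means were 0.10 for CYR61 and -0.34 for BHLHE40, and the CAL27 means 0.27 and 0.49. The median of the list was 0.91 in SCC13 tumors and 0.68 in CAL27 tumors, against -0.02 and 0.01 over all genes.

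Of 3 measured genes of the EGFR and MAP kinase pathway, EGFR, the receptor upstream of AP-1 induction, fell in the tumors of every line. It averaged -3.10 in SCC13 tumors (adjusted p = 1.09e-08), -2.98 in CAL27 tumors (1.65e-06) against -0.85 in culture (0.061), and -1.76 in A431 tumors (0.00306) against -1.25 in culture (0.0104). EGFR was at the floor in 11 of 16 SCC13 tumors and 3 of 10 CAL27 tumors, so those means rest partly on bounds. The other 2, ETS1 and ETS2, did not pass in any table. In A431 tumors EGFR was called lower and 0 of the 6 transcription factors were, where 11.9% of all genes fell. Relative to the non-targeting guides FOSL1 and MYC passed there as well (adjusted p = 0.0273 and 0.0144, limma). On that scale 73 of all genes were lower there, in place of 39. The difference between EGFR and the 6 genes was not tested.

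Of 10 measured textbook AP-1 target genes 1 fell and 2 rose in SCC13 tumors, 1 fell and 2 rose in CAL27 tumors, and 2 fell and 1 rose in A431 tumors, with list medians of 0.32, 0.22 and 0.16. These counts stand beside 23.9% of all genes lower and 23.5% higher in SCC13 tumors, 22% and 18.7% in CAL27 tumors, and 11.9% and 7.95% in A431 tumors. KRT5, a basal keratin, rose in SCC13 tumors (1.21) and CAL27 tumors (1.16), as did VIM, an intermediate filament protein (2.73 and 0.81). Relative to the non-targeting guides KRT5 averaged -0.41 and 0.34 and VIM 1.11 and -0.0021, so the sign of KRT5 in SCC13 and of VIM in CAL27 depends on the gene or guides taken as 0. TIMP1, an inhibitor of matrix proteases, fell in SCC13 tumors (-1.65) and A431 tumors (-0.89). Of 11 measured partner and target genes of MYC 6 fell in SCC13 tumors, 6 in CAL27 tumors and 4 in A431 tumors, while 1, 2 and 0 rose, beside 23.9%, 22% and 11.9% of all genes lower. In culture 7 fell in CAL27 and 4 in A431, beside 18.7% and 11.3% of all genes. The list's medians were -1.45 in SCC13, -1.52 in CAL27 and -1.04 in A431 tumors, against -0.02, 0.01 and 0.02 over all genes.

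PKM, a glycolytic enzyme, fell in all 3 tumor tables (-2.88 in SCC13, -3.09 in CAL27 and -1.04 in A431). DUT, which keeps uracil out of DNA, averaged -3.51, -5.36 and -1.51 in the same order and GNB2L1, a ribosomal scaffold, -2.87, -2.96 and -1.15, with the A431 values of both short of the threshold (adjusted p = 0.0572 and 0.0576). CDKN2B, a cyclin-dependent kinase inhibitor that MYC is known to repress, rose in SCC13 tumors (7.72) and CAL27 tumors (1.45). MAX, the partner of MYC, was looked up after its values were seen: it averaged -0.04 in SCC13 tumors, -0.35 in CAL27 tumors against -0.50 in culture, and -0.29 in A431 tumors against -0.39 in culture, and it fell in CAL27 culture (adjusted p = 0.0254), the 1 table in which it passed. MYC had a mean below that of MAX in every table.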

How the data were processed

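The authors deposited 5 tables of scores without headers, each with a log fold change per gene against the initial cells; Bowtie2 was used per the submitters' processing notes. No source used here names the log base, pseudocount, guide summary or build. The non-targeting row was 0 in all 38 value columns, so the deposited scores are relative to those guides. Columns carry no replicate numbers and were mapped to groups by table. The series design names 334 genes, and the tables hold 327.

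Columns were centred on their median. limma 3.58.1 in R 4.3.3 (lmFit, eBayes) was fitted to each table, to tumors with culture, to the tumors of the 3 lines and to the cultures, over all 327 genes, with Benjamini-Hochberg adjustment at 0.05, after a test on simulated data. Comparing tables assumes 1 log base and guide summary throughout. Floor values were those where at least 4 genes shared a difference to 6 decimals. Alternatives were the deposited scale, division by the column SD, a robust prior, an own spread per table, sign-flip tests, floor values left out, and each column left out. Leaving out tumors with both paralogs at the floor was added after seeing the data.

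The members, lists and tests were chosen with earlier results of these data known. Named besides the 6 members are the 2 most similar genes of each, up to 4 called genes per list by smallest adjusted p, and EGFR.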

Additional observations from a re-analysis of the deposited data

Results flagged for a closer look

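6 differences between lines passed a test of the difference itself. In SCC13 tumors minus A431 tumors these were FOS at -1.95, FOSL1 at -1.94 and JUNB at -3.02 log units. In SCC13 tumors minus CAL27 tumors they were FOS at -2.13 and JUN at 2.45. In CAL27 culture minus A431 culture it was MYC at -1.15. The first 5 compare tables with different floors and mouse strains, and the last rests on 2 cultures per line. No member had a tumor that stood apart from its group by Dixon's test, which was run on the groups of 8 and 10 tumors and not on the 16 SCC13 tumors.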

How the results depend on the processing

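Over the 6 genes and 11 comparisons, 993 alternative values were counted as unchanged, 34 as newly passed, 25 as no longer passed and 28 as changed in sign. The causes were not tested. Where leaving out 1 culture left a single one against the initial cells, there was no test. Such a value was counted as unchanged if it lay within the SD of the mean, which always holds with 2 cultures. Among them FOS in both cultures and JUN in A431 culture did change sign. Relative to the non-targeting guides, signs changed for JUNB in A431 tumors (-0.18) and JUN in SCC13 tumors (-1.11). They also changed for JUN (-0.35) and ATF3 (-0.004) in A431 culture, and for FOS (0.036) and MYC (0.045) in A431 tumors minus culture. Between lines they changed for FOS in CAL27 minus A431 tumors (-0.35) and JUN in SCC13 minus A431 tumors (-0.70). The same held for FOSL1 (-0.48) and ATF3 (-0.067) in SCC13 minus CAL27 tumors. On that scale 2 members passed in A431 tumors, beside 73 of all genes lower. In CAL27 culture 6 passed, beside 293 of all genes lower, which does not set the members apart. In SCC13 minus A431 tumors 4 passed, beside 121 lower. In CAL27 minus A431 tumors 3 passed, and the count over all genes on that scale is not given. With columns divided by their SD, signs changed in tumors minus culture for FOS (0.0016), FOSL1 (0.61), JUNB (0.21) and MYC (2.00) in CAL27 and for FOS (0.13) and MYC (0.78) in A431, for MYC in SCC13 minus A431 tumors (0.42) and for JUN minus JUNB in CAL27 tumors (-0.092). In tumors minus culture 1 member passed in CAL27 and 1 in A431, beside 2.45% and 3.36% of all genes higher. Between cultures 0 passed, beside 1 gene lower. Members that passed numbered 1 in A431 tumors, 2 in CAL27 minus A431 tumors and 1 in SCC13 minus A431 tumors. The alternatives that kept every column, this division among them, called at most 73, 44 and 121 genes lower in these. Those maxima came from other settings: the deposited scale for 73 and 121, and an own spread per table for 44. The counts over all genes with columns divided by their SD are not given for these comparisons, so the member counts have no share beside them. An own spread per table gave 3 lower in CAL27 tumors minus culture, beside 15% of all genes. It gave 1 higher in A431 tumors minus culture, beside 6.73%, and 4 lower in CAL27 minus A431 tumors, beside 13.5%. Without floor values 1 passed in SCC13 tumors, CAL27 minus A431 tumors, SCC13 minus A431 tumors and SCC13 minus CAL27 tumors.

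Leaving out 1 column gave ranges that crossed 0 for FOS in CAL27 tumors (-0.15 to 0.019), in tumors minus culture of CAL27 (-0.12 to 0.051) and of A431 (-0.40 to 0.29) and between cultures (-0.17 to 0.52), for MYC in A431 tumors minus culture (-0.21 to 0.24), for JUN minus JUNB in CAL27 tumors (-0.45 to 0.47), and for FOSL1 minus FOS in A431 tumors (-0.31 to 0.077) and SCC13 tumors (-0.51 to 0.20). With a single culture left, FOS lay on both sides of 0 in A431 (0.14 and -0.56) and in CAL27 (-0.09 and 0.03). JUN did so in A431 culture (0.08 and -0.04). Leaving out 1 column gave 0 to 2 members in CAL27 minus A431 tumors, where 7 to 15 of all genes were lower. It gave 0 between cultures, where 0 were lower. Without SCC13 tumor column 3, 4 members passed in SCC13 tumors, where leaving out 1 column gave 73 to 83 genes lower.

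Over all genes, the sign-flip test gave 0 lower and 0 higher in A431 tumors (39 and 26 by limma; 51 and 49 at an unadjusted p under 0.05), and the deposited scale 73 lower. That scale also gave 136 lower and 1 higher in A431 culture (37 and 7 on the centred scale), 293 and 0 in CAL27 culture (61 and 16), 121 and 5 in SCC13 minus A431 tumors (35 and 34), 68 and 12 in SCC13 minus CAL27 tumors (26 and 32) and 21 lower between cultures (9). An own spread gave 18 and 22 in A431 and 49 and 58 in CAL27 tumors minus culture (0 and 0 for both), and 44 and 29 in CAL27 minus A431 tumors (10 and 1). Leaving out floor values gave 25 lower in SCC13 tumors (78), 12 in SCC13 minus A431 tumors (35) and 13 in SCC13 minus CAL27 tumors (26). No paired analysis was possible because the value columns carry no replicate numbers. Depth is unknown, and the floor limits what SCC13 tumors can show of a loss.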
